A study of Caenorhabditis remanei with 48 samples.

Results

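Linkage group 2 of the Caenorhabditis remanei gene models carries a stretch around 2 models, CRE21296 and CRE_PX356_198, that earlier results on these libraries had listed among the strongest rises of larvae at 30 °C. The stretch was taken as every gene model whose name places it on linkage group 2 with a block number from 45 to 49, the number that directly follows "gene-" in the model name. Of 24723 models in all, 115 had such a name, and the 85 with at least 10 counts summed over the 48 libraries are its members. Another 30 models of the same blocks stayed below 10 counts, 6 of them at 0. Just inside that limit stood CRE21423 and CRE14526 with 10 counts each, and just outside it stood CRE_PX356_199, CRE06380, CRE06306 and CRE04045 with 9 each. The members fell into the blocks as 11, 7, 10, 28 and 29 models from block 45 to block 49. The data went against a reading of the stretch as a run of strongly induced genes: of the 56 members with enough counts to be tested, 2 rose strongly with larval heat, both in block 47.

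C. remanei is a nematode with males and females and a relative of C. elegans. The samples were pooled first-stage (L1) larvae of 3 populations: an ancestor, strain PX443, and 2 derived from it, one control-selected and one heat-selected. Embryos were obtained by bleaching, kept for 20 h at 20 or 30 °C in buffer without food, passed as larvae through a 20 micron filter and frozen in pools of about 100000 animals. Each population gave 6 libraries for each larval temperature from parents raised at 20 °C and 2 for each from parents raised at 30 °C, which makes 12 groups. Below, heated and unheated parents are those at 30 and 20 °C. Each selected history is represented by 1 population, so selection and any other difference between the populations cannot be told apart. All larvae were without food, and the labels name neither the number of generations of selection nor when the parents were heated.

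In nematodes as in other animals, heat unfolds proteins and activates heat shock factor, which switches on genes for chaperones within minutes to hours. In C. elegans some small heat shock protein genes sit side by side in divergent pairs that share a regulatory region, while many other heat-responsive genes are scattered, so a local cluster and a single inducible gene are both known arrangements. The files name the models by identifiers only and the RefSeq gene table gives these identifiers no gene name, so no role is assigned to any member here and no marker check of the larvae was made.

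Messenger RNA was sequenced and reads were counted per gene model. The libraries held 1986767 to 12717722 counts in gene models, and the 85 members took 4899 to 37180 of them. Levels are given as CPM, the counts of a model relative to the library's counts in gene models, scaled by TMM. They do not correct for transcript length, so levels are compared between groups and not between models. The larvae were whole pooled animals, in which fewer cells of a type and less RNA per cell cannot be told apart. In 1 library, replicate 3 of the heat-selected larvae at 20 °C with unheated parents, CRE21296 stood at 26.4 CPM against 0 to 1.06 CPM in the other 5 libraries of its group. CRE26773, a gene of linkage group 4, stood at 16.9 CPM in that library against 0 to 1.31 CPM in those 5. The log2 changes of the pair and of CRE06403 that include this library are given with and without it where they are described.

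CRE21296 and CRE_PX356_198 were near 0 in most larvae at 20 °C and rose together at 30 °C in ancestor and heat-selected larvae of unheated parents. They chose the stretch, so their larval response with unheated parents is a description. No p-value is given for it, and calls of the pair in it are part of that description. CRE21296 in ancestor larvae ranged from 0.39 to 1.67 CPM at 20 °C, with a median of 0.71, and from 31.2 to 75.0 CPM at 30 °C, with a median of 55.5. In heat-selected larvae it ranged from 0 to 26.4 CPM at 20 °C, with a median of 0.22, and from 91.9 to 345 CPM at 30 °C, with a median of 314. In both populations every library at 30 °C stood above every library at 20 °C. Control-selected larvae ranged from 0.31 to 1.93 CPM at 20 °C, with a median of 1.24, and from 1.16 to 77.0 CPM at 30 °C, with a median of 6.88, and here the groups overlapped. The fitted log2 change was 5.93 ± 0.86 (SE, 6 against 6 libraries) in the ancestor, 3.95 ± 0.91 in control-selected and 5.82 ± 0.79 in heat-selected larvae. Without the heat-selected 20 °C replicate 3 the last value was 10.11.

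The control-selected libraries at 30 °C came in 3 levels. Replicates 1 and 2, which form labelled batch C, stood at 2.14 and 1.16 CPM of CRE21296, next to 1.93 and 0.75 CPM in the batch C libraries at 20 °C. Replicates 3 and 4 reached 71.6 and 77.0 CPM, and replicates 5 and 6 reached 7.39 and 6.37 CPM, all from batch D. Consecutive replicates were thus close and the pairs far apart: the largest difference within such a pair was 0.67 on the log2 scale, against a range of 5.16 between the means of the pairs. In the ancestor these values were 0.28 and 1.04, and in heat-selected larvae 0.14 and 1.81. With consecutive replicates summed, CRE21296 was no longer called in control-selected larvae, at a log2 change of 3.81. The labels do not say whether replicates came from separate cultures, so a p-value measures the spread between these libraries, which may be technical.

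CRE_PX356_198 rose at 30 °C as well, at lower counts, but ordered the 30 °C libraries of ancestor and heat-selected larvae differently. Ancestor larvae had 0 CPM in 5 of 6 libraries at 20 °C and 0.087 CPM in the other one, and 3.12 to 7.43 CPM at 30 °C with a median of 4.99. That is 1 count over 6 libraries against 221 counts, a ratio of 216 with a 95% exact counting interval of 38.5 to 8588. Heat-selected larvae had 0 CPM in 5 of 6 libraries at 20 °C and 1.47 CPM in replicate 3, and 5.01 to 85.0 CPM at 30 °C with a median of 16.8. The counts were 4 and 649, and the pooled CPM was 135 times higher at 30 °C. Control-selected larvae ranged from 0 to 0.31 CPM at 20 °C and from 0 to 3.89 CPM at 30 °C, with medians of 0.097 and 0.52, so the groups overlapped as they did for CRE21296. Their 3 counts at 20 °C and 31 at 30 °C give a ratio of 11.4, with an interval of 3.55 to 58.1, which covers counting error only. Fitted log2 changes were 6.56 ± 0.85, 3.14 ± 0.94 and 6.87 ± 0.70 (SE) for ancestor, control-selected and heat-selected larvae. Without the heat-selected 20 °C replicate 3 the last value was 10.69, and the other 5 libraries of that group held 0 counts. With so few counts at 20 °C these fitted values depend on the prior count and are no bounds. The call in control-selected larvae was lost without replicate 4 at 30 °C, at a log2 change of 2.60.

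**Figure D1:**
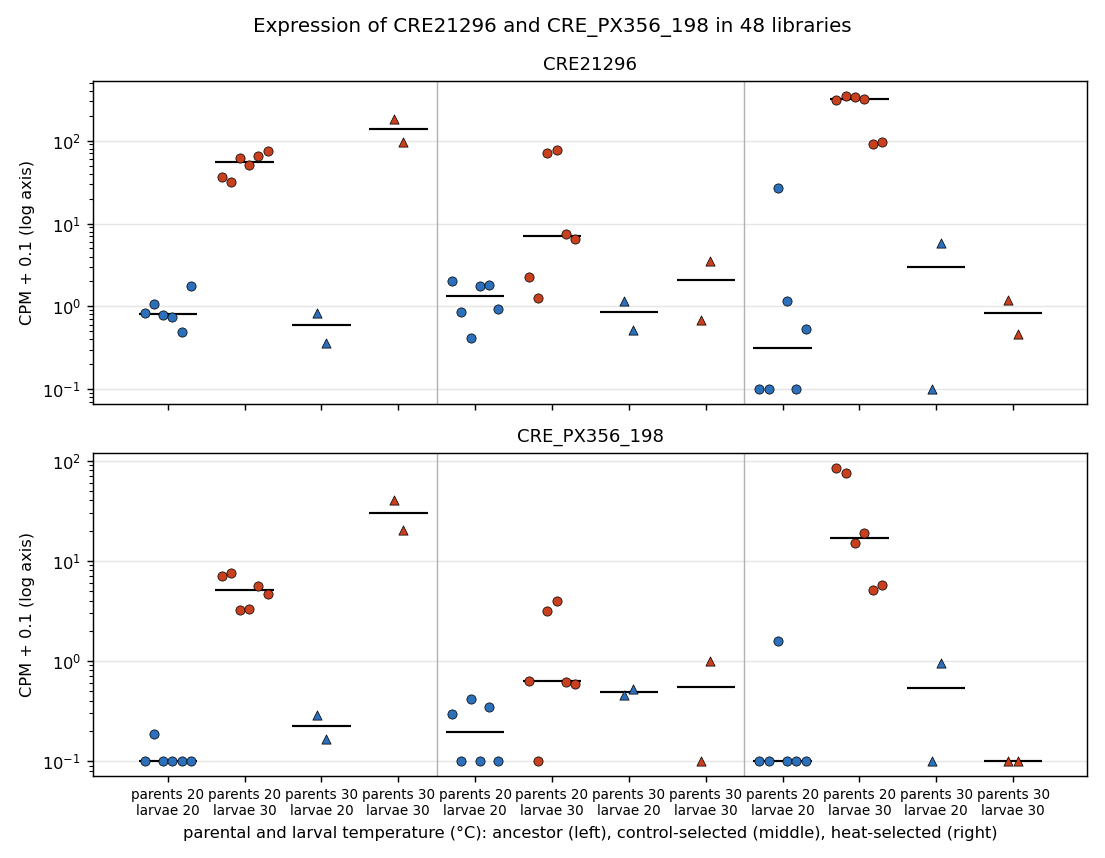
CPM plus 0.1 (log axis) of CRE21296 and CRE_PX356_198 in each of the 48 libraries, by population, parental and larval temperature. Points are libraries (circles for parents at 20 °C, triangles for parents at 30 °C, blue for larvae at 20 °C, red for larvae at 30 °C) and bars are group medians. Heat-selected larvae at 30 °C stand at 91.9 to 345 CPM of CRE21296 with unheated parents and at 0.36 and 1.11 CPM with heated parents.

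With unheated parents no other tested model of block 47 had a log2 change above 1.12 in any population. CRE06403 was moderately higher at 30 °C: ancestor larvae ranged from 61.6 to 107 CPM at 20 °C and from 79.0 to 152 CPM at 30 °C, with medians of 62.9 and 102, and the groups overlapped in the ancestor. Its log2 change was 0.72 ± 0.14 (SE) in ancestor, 0.80 ± 0.13 in control-selected and 1.12 ± 0.13 in heat-selected larvae, or 1.18 in the last without 20 °C replicate 3. Heat-selected larvae did not overlap, with 56.2 to 82.4 CPM at 20 °C and 111 to 180 CPM at 30 °C.

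CRE18143, CRE21300 and CRE21370 were called in no population. CRE18143 ranged from 12.1 to 16.8 CPM at 20 °C and from 11.4 to 17.9 CPM at 30 °C in the ancestor, at a log2 change of 0.04 ± 0.15 (SE). CRE21300 changed by -0.42 ± 0.36 in ancestor, -0.04 ± 0.36 in control-selected and 0.49 ± 0.39 in heat-selected larvae on the log2 scale, and CRE21370 by -0.53 ± 0.35, -0.10 ± 0.31 and -0.57 ± 0.33 in the same order. In heat-selected larvae of unheated parents CRE21300 ranged from 1.59 to 12.4 CPM at 20 °C and from 4.32 to 22.9 CPM at 30 °C, and the groups overlapped. The other 4 members of block 47, CRE14526, CRE14525, CRE_PX356_1378 and CRE_PX356_1379, had 10, 13, 90 and 97 counts over all libraries and were not tested. In larvae of unheated parents CRE_PX356_1378 had 20 counts at 20 °C and 30 at 30 °C, and CRE_PX356_1379 had 35 and 31. None of these 4 members passed 1.77 CPM in any library.

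In the blocks on either side no tested member had a called log2 rise of 3 or more. Called members numbered 18 of 56 in ancestor larvae (9 higher and 9 lower at 30 °C), where 39% of all 13460 tested genes were called (21.2% higher, 17.9% lower). They numbered 9 in control-selected larvae (3 higher, 6 lower) against 23.4% of all tested genes (12.2% higher, 11.2% lower), and 16 in heat-selected larvae (10 higher, 6 lower) against 22.3% (10.7% higher, 11.6% lower). With libraries scaled by their totals alone the split was 4 higher and 10 lower in the ancestor and 5 higher and 8 lower in heat-selected larvae. All tested genes shifted the same way in that fit. In the ancestor 5074 were called, 1701 of them higher, and in heat-selected larvae 2799, 821 of them higher. The median log2 change over the 56 tested members was 0.04 in ancestor, 0.02 in control-selected and 0.17 in heat-selected larvae, against 0.02 over all tested genes in each population. A call with a log2 change of at least 3 upward was made for 2 members in each population, the same pair each time, while 0.817%, 0.557% and 0.364% of all tested genes reached it. These counts include the contrast that chose the stretch and are given as a description.

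Block by block, the highest log2 change outside block 47 was 2.26, for CRE04028 of block 48 in control-selected larvae, which was not called there and had at most 2.71 CPM in any library. In block 45 CRE21354 was called higher in ancestor and heat-selected larvae, by 0.97 ± 0.34 and 1.48 ± 0.37 (SE) on the log2 scale. In block 46 the single call in any population was CRE22624, lower by a log2 change of -0.98 ± 0.33 in the ancestor. In block 48 the median log2 change was 0.07 in ancestor, 0.07 in control-selected and 0.29 in heat-selected larvae, and in block 49 it was -0.03, -0.14 and 0.06. Leaving CRE21296 and CRE_PX356_198 out of block 47, its highest tested value was 0.72, 0.80 and 1.12, in each case that of CRE06403.

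Farther out, blocks 40 to 44 held 39 tested models and blocks 50 to 54 held 81. A single model there reached a called log2 change of 3, in block 40 of control-selected larvae at 3.06. Along the whole of linkage group 2, with 1226 tested models in 127 blocks, 10 models of 7 blocks reached it in ancestor larvae, 9 models of 7 blocks in control-selected larvae and 5 models of 4 blocks in heat-selected larvae. Block 47 held 2 such models in each population. Block 112 held 3 in ancestor larvae and block 104 held 2 in control-selected larvae. Among all 13460 tested genes CRE_PX356_198 ranked 8, 69 and 1 by log2 change in the same order of populations, and CRE21296 ranked 12, 34 and 6. The pair was chosen for this rise, so its ranks and the place of block 47 are a description. Within linkage group 2, strong rises in heat-selected larvae were thus 2 models of block 47 and 3 single models of other blocks.

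**Figure D2:**
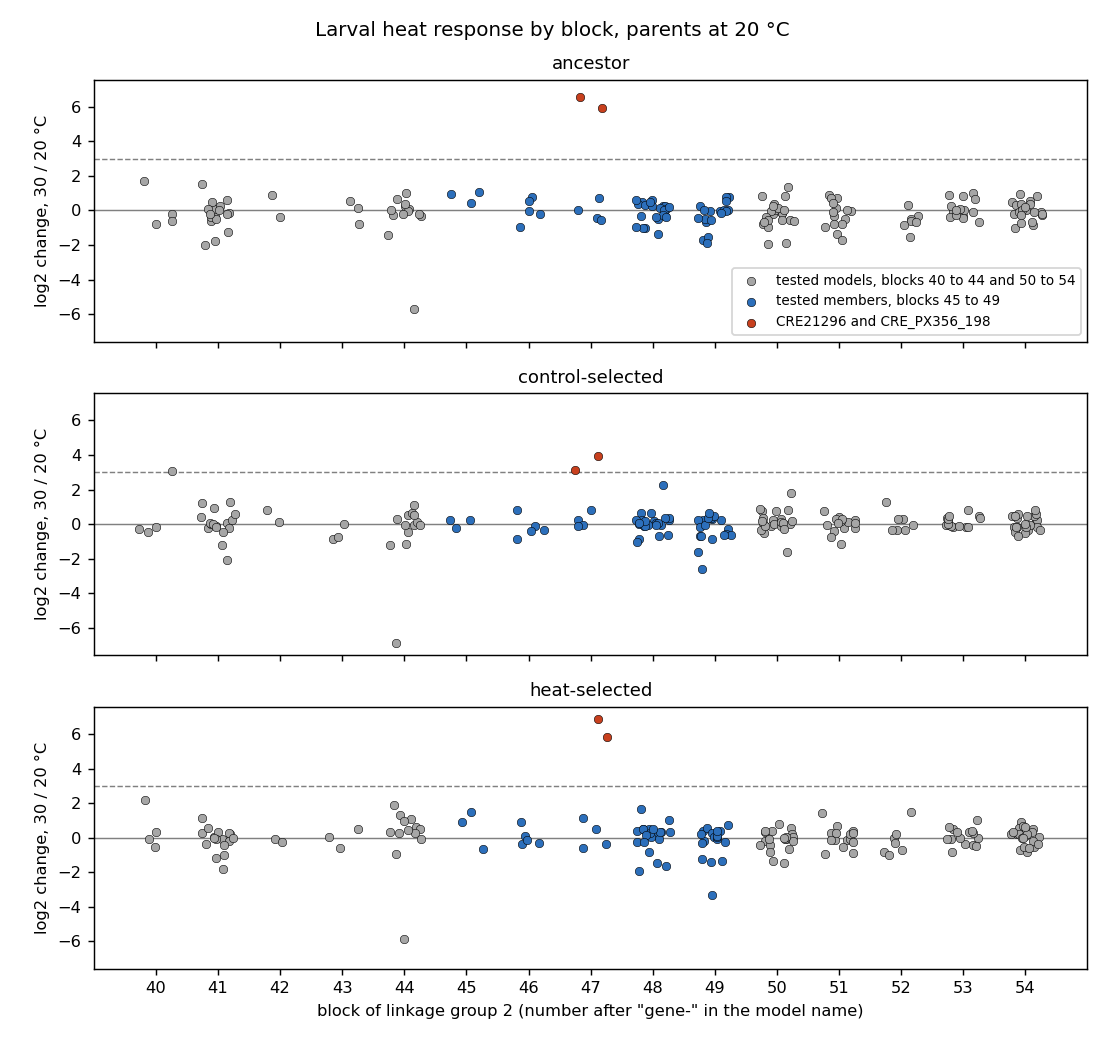
Log2 change of expression in larvae at 30 °C over 20 °C with unheated parents, for each tested model of blocks 40 to 54 of linkage group 2, in 3 populations. Points are gene models, spread sideways within a block for legibility, and the dashed line marks a log2 change of 3. The 2 red points of block 47 stand at 5.93 and 6.56 in the ancestor, where the highest blue member is at 1.09. In control-selected larvae they stand at 3.95 and 3.14, with the highest blue member at 2.26 and a grey model of block 40 at 3.06.

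The 29 members that were not tested had 10 to 162 counts over all libraries. Their highest level in any single library lay between 0.231 and 3.13 CPM. Over larvae of unheated parents 12 of them had a higher pooled CPM at 30 °C and 17 a lower one. The 3.13 CPM belonged to CRE04100 of block 49, which had 5 counts at 20 °C and 27 at 30 °C in larvae of unheated parents.

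Block numbers gave neighbourhood in some blocks and not in others. The order of genes in RefSeq's annotation of the PX506 assembly, a different strain and build whose coordinates are not used here, was compared with the block numbers through the identifiers that both share, which matched 73 of the 115 models. In blocks 48 and 49, all 46 matched models lay on 1 chromosome in a single run of 57 gene places, with no gap above 3 places. In block 47 the 11 matched models lay on 2 chromosomes, and the 9 on the commoner one fell into 4 runs that spanned 871 places. CRE06403 stood 1005 places from the last matched gene of block 48, and CRE21300 stood 748 places from CRE06403. CRE21370 and CRE21300, which were not called, were 2 places apart. CRE21296 and CRE_PX356_198 had no match, so their distance from each other and from the rest of block 47 was not measured here.

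In larvae of heated parents, libraries outside the contrast that chose the stretch, though earlier results on all libraries were known, the pair rose with larval heat in the ancestor. Ancestor larvae had 0.74 and 0.26 CPM of CRE21296 at 20 °C and 181 and 97.0 CPM at 30 °C. They had 0.18 and 0.066 CPM of CRE_PX356_198 at 20 °C and 40.3 and 19.9 CPM at 30 °C. Both libraries at 30 °C stood far above both at 20 °C for each model. The log2 change was 8.13 ± 1.49 (SE, adjusted p = 3.8e-04) for CRE21296 and 7.73 ± 0.95 (adjusted p = 7.5e-07) for CRE_PX356_198, by the quasi-likelihood test of edgeR, with Benjamini-Hochberg adjustment over all tested genes. This test of the ancestor alone was added after the values were seen. The comparison planned before, the mean over the 3 populations, called neither model. For CRE_PX356_198 in the ancestor the counts were 3 at 20 °C and 396 at 30 °C, a ratio of 226 with a 95% counting interval of 76.8 to 1100. With both replicates summed into 1 library a group, the adjusted p was 0.25 and 0.074.

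The larvae of heated parents in the selected populations gave no call for either model. Control-selected larvae had 1.07 and 0.42 CPM of CRE21296 at 20 °C and 0.59 and 3.42 CPM at 30 °C, a log2 change of 1.43 ± 1.82 (SE, edgeR adjusted p = 0.78), and the groups overlapped. Heat-selected larvae had 0 and 5.73 CPM at 20 °C and 1.11 and 0.36 CPM at 30 °C, a log2 change of -1.55 ± 2.03 (adjusted p = 0.80), and these groups overlapped too. CRE_PX356_198 had 4 counts at 20 °C and 6 at 30 °C in control-selected larvae, at a log2 change of 0.34 ± 1.34 (SE, adjusted p = 0.95). In heat-selected larvae it had 3 counts at 20 °C and 0 at 30 °C, for which no fold is given. The labelled batches behind these libraries, C and E, differ in the unheated larvae: in batch C CRE21296 stayed at 2.14 and 1.16 CPM at 30 °C with unheated parents, and in batch E it reached 312 and 345 CPM.

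The difference in the larval response with heated parents between heat-selected and ancestor larvae was -9.68 ± 2.45 (SE) on the log2 scale for CRE21296, and for CRE_PX356_198 no size is given because heat-selected larvae held 3 counts and 0. With edgeR's adjusted p of 0.078 and 0.09 neither was called, against 0.201% of all tested genes called by edgeR. DESeq2 called 2 members and 81 of all 13460 tested genes. Without the filter on low counts edgeR called 2 members and 59 of 22366 genes. At an unadjusted p under 0.05 there were 9 members, and the share of all genes under that limit was not counted. Between control-selected and ancestor larvae the differences were -6.70 ± 2.84 (adjusted p = 0.44) for CRE21296 and -7.39 ± 2.04 (adjusted p = 0.11) for CRE_PX356_198. Here edgeR called 0 members and 0.379% of all genes, and DESeq2 called 3 members and 151 of all tested genes. Another 9 was the number of members at an unadjusted p under 0.05, again without a share of all genes. Between heat-selected and control-selected larvae 0 members and 0 of all genes were called by edgeR, 0 members by DESeq2, and 1 member had an unadjusted p under 0.05. These tests by population were chosen after the values were seen.

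**Figure D3:**
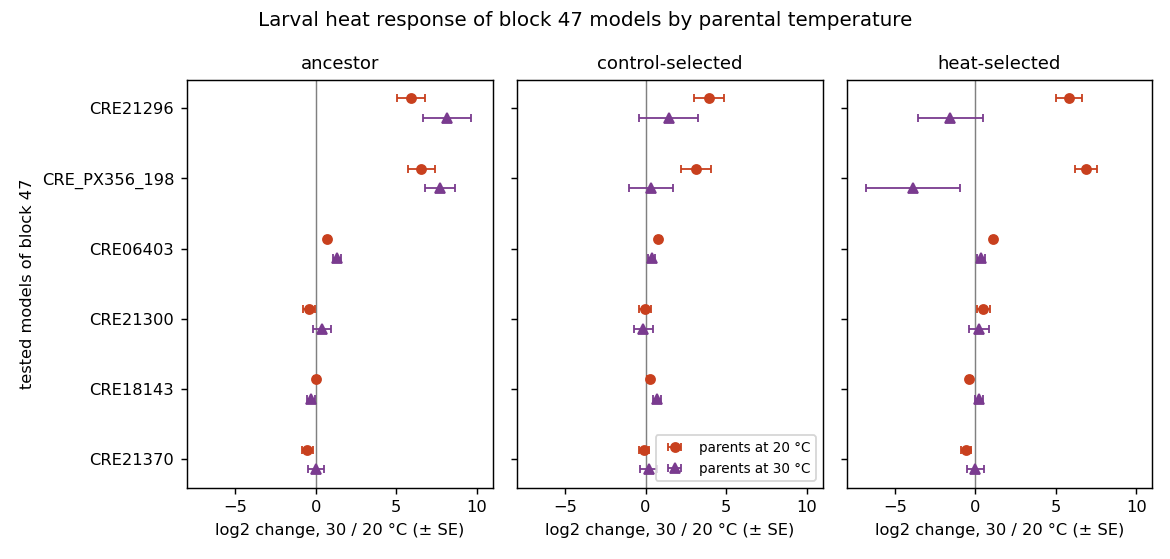
Log2 change (± SE) of larvae at 30 °C over 20 °C for the 6 tested models of block 47, with parents at 20 °C (circles, 6 against 6 libraries) and at 30 °C (triangles, 2 against 2 libraries), in 3 populations. CRE21296 changed by 8.13 in ancestor larvae of heated parents and by -1.55 in heat-selected ones. The triangle of CRE_PX356_198 in heat-selected larvae rests on 3 counts at 20 °C and 0 at 30 °C and gives no usable size.

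Averaged over the 3 populations, the larval response with heated parents was called for 11 of the 56 tested members, 5 higher and 6 lower, and for 18.7% of all tested genes (9.19% higher, 9.52% lower). The pair was not among them: the log2 change of CRE21296 was 2.67 ± 1.21 (SE, adjusted p = 0.12), and CRE_PX356_198 had an adjusted p of 0.97. The lowest adjusted p in block 47 was that of CRE06403, which rose by 0.68 ± 0.13 (adjusted p = 2.6e-04). Its 2 ancestor libraries went from 48.7 and 52.0 CPM to 142 and 110 CPM, its control-selected ones from 64.2 and 58.1 to 66.4 and 92.2 CPM, and its heat-selected ones from 67.1 and 78.0 to 102 and 81.4 CPM. All 3 populations were without overlap between temperatures. The ancestor alone gave 1.32 ± 0.23 (adjusted p = 1.9e-04). In block 48 CRE04033 rose by 0.49 ± 0.14 (adjusted p = 0.013), a call lost without heat-selected 30 °C replicate 1 of heated parents (0.41), without a batch term (0.48) and without the filter (0.42), and CRE04079 and CRE04031 fell, with log2 changes of -0.87 ± 0.15 (adjusted p = 7.4e-05) and -0.77 ± 0.22 (adjusted p = 0.0093). The fall of CRE04031 was not shared by the ancestor, which went from 325 and 421 CPM to 651 and 277 CPM, with overlap. Control-selected larvae went from 371 and 474 to 109 and 164 CPM, and heat-selected ones from 301 and 481 to 132 and 257 CPM. The call of CRE04031 was lost without a batch term and with library totals (-0.77 and -0.79). With consecutive replicates summed, the calls of CRE06403, CRE04033, CRE04079 and CRE04031 were lost. In block 49 CRE04112 and CRE_PX356_1270 fell, with log2 changes of -1.19 ± 0.19 (adjusted p = 1.1e-05) and -1.65 ± 0.31 (adjusted p = 2.0e-04). All p-values in this paragraph are edgeR's, adjusted over all tested genes.

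The comparisons of single populations with heated parents were added after the values were seen. Population by population, edgeR called 7 members with heated parents in the ancestor (4 higher, 3 lower), where 9.34% of all genes were called (5.1% higher, 4.23% lower). The 4 higher ones were the pair, CRE06403 and CRE04033, the last at a log2 change of 1.14 ± 0.24 (SE, adjusted p = 0.0018). The 3 lower ones were CRE04079, CRE04112 and CRE_PX356_1270. In control-selected larvae 2 members were called, both lower, against 1.95% of all genes (1.28% lower): CRE04031 at -1.63 ± 0.38 (adjusted p = 0.012) and CRE04112 at -1.29 ± 0.33 (adjusted p = 0.022). Each of these 2 calls was lost without some single library, CRE04031 without 20 °C replicate 2 or either 30 °C replicate (log2 changes of -1.44, -1.36 and -1.95) and CRE04112 without 20 °C replicate 1 (-1.09) or 30 °C replicate 2 (-0.96). In heat-selected larvae edgeR called 0 members and 2.19% of all genes, and DESeq2 called 0 members and 416 of all tested genes. At an unadjusted p under 0.05 there were 5 members, and the share of all genes under that limit was not counted.

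CRE_PX356_1270 of block 49 was the member with the largest fall in larval heat. With unheated parents it ranged from 3.95 to 5.85 CPM at 20 °C and from 0.23 to 1.66 CPM at 30 °C in the ancestor, and from 2.74 to 10.6 CPM and from 0 to 1.14 CPM in heat-selected larvae. Every 20 °C library stood above every 30 °C library in all 3 populations, at log2 changes of -1.88 ± 0.35, -2.57 ± 0.37 and -3.33 ± 0.42 (SE). With heated parents the ancestor went from 4.70 and 4.26 CPM to 0.44 and 0.65 CPM, a log2 change of -2.90 ± 0.61 (edgeR adjusted p = 0.0017). Heat-selected larvae of heated parents kept 6.41 and 1.45 CPM at 30 °C, and the log2 change there, -0.74 ± 0.52, was not called (adjusted p = 0.57). The difference between these populations was 2.16 ± 0.81 and was not called either (adjusted p = 0.39).

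CRE04079 of block 48 was lower at 30 °C in each population with unheated parents, by log2 changes of -0.99 ± 0.16, -0.88 ± 0.16 and -1.64 ± 0.16 (SE). In heat-selected larvae it stood at 87.5 to 219 CPM at 20 °C and at 33.5 to 73.5 CPM at 30 °C, without overlap. CRE04103 of block 49 was lower as well, by -1.72 ± 0.38, -1.61 ± 0.39 and -1.40 ± 0.48, with ancestor medians of 4.15 CPM at 20 °C and 1.11 CPM at 30 °C. CRE04038, the lowest of block 48 by the mean over populations, had at most 4.34 CPM in any library and was called in none.

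With parental heat, averaged over both larval temperatures, the pair fell in heat-selected larvae. Among heat-selected larvae at 30 °C in batch E, CRE21296 stood at 312 and 345 CPM with unheated parents and at 1.11 and 0.36 CPM with heated parents, a pooled ratio of 399. CRE_PX356_198 stood at 85.0 and 74.1 CPM and at 0 in both libraries, so it was at least 193-fold lower with heated parents, counting 3 reads over the 2 libraries as the floor. At 20 °C in the same batch CRE21296 had 0 in both libraries of unheated parents and 0 and 5.73 CPM in those of heated parents. The averaged effect was -4.42 ± 1.10 on the log2 scale (SE, edgeR adjusted p = 0.011) for CRE21296 and -6.11 ± 1.42 (adjusted p = 0.0066) for CRE_PX356_198. The parental effect draws on the libraries of unheated parents that chose the pair. Its p-values for the pair are therefore a description and no independent test. Both calls were lost without the heat-selected 20 °C replicate 3 of unheated parents, at -2.73 (adjusted p = 0.38) and -4.38 (adjusted p = 1.0). The call of CRE21296 was also lost without replicate 1 of heated parents at 20 °C, at -3.79 (adjusted p = 0.072), and that of CRE_PX356_198 without a batch term, at -4.96 (adjusted p = 0.081).

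In the ancestor the parental effect was 0.31 ± 1.03 (SE, edgeR adjusted p = 0.91) for CRE21296 and 1.67 ± 0.94 (adjusted p = 0.35) for CRE_PX356_198. Among ancestor larvae at 30 °C in batch A replicates 1 and 2, the pooled CPM of CRE21296 with unheated parents was 0.277 times that with heated parents, and for CRE_PX356_198 it was 0.278 times. Replicates 5 and 6 of unheated parents are labelled batch A as well and are not in these ratios. They stood at 65.4 and 75.0 CPM of CRE21296, above replicates 1 and 2 at 36.4 and 31.2 CPM, and at 5.43 and 4.55 CPM of CRE_PX356_198, below their 6.98 and 7.43 CPM. In control-selected larvae of batch C the pair was low at 30 °C with either parental temperature, and the effects were 0.28 ± 1.41 and 1.84 ± 1.24 (adjusted p = 1.0 and 0.97). The larval response with heated parents was not tested against that with unheated parents, because the latter chose the stretch.

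Among the other members, edgeR called 8 in the parental effect of heat-selected larvae, the pair included (2 higher and 6 lower with heated parents), against 5.54% of all tested genes (2.77% higher, 2.77% lower). The pair adds to this count as a description only, since it was chosen on libraries that enter the effect. With libraries scaled by their totals 727 of all tested genes were called, 484 of them higher. Members called in that fit were 4, 2 higher and 2 lower. The number was 5 without 30 °C replicate 2 of unheated parents or 20 °C replicate 2 of heated parents, 4 without 30 °C replicate 1 of heated parents and 3 without their 20 °C replicate 1. CRE_PX356_1270 rose by 2.40 ± 0.49 on the log2 scale (SE, adjusted p = 0.0016). In batch E it stood at 2.74 and 3.90 CPM at 20 °C and at 0 and 0.63 CPM at 30 °C with unheated parents, and at 8.41 and 5.45 CPM and 6.41 and 1.45 CPM with heated parents. At each larval temperature the batch E libraries of heated parents thus stood above those of unheated parents, and the call was lost without 30 °C replicate 1 of heated parents (log2 change of 1.64, adjusted p = 0.13). The batch F libraries of unheated parents at 20 °C stood at 6.59, 9.03, 10.6 and 10.5 CPM, which overlapped those of heated parents, and without a batch term the change was 1.24 (adjusted p = 0.059). CRE04079 rose by 0.75 ± 0.19 (adjusted p = 0.014), CRE04078 changed by -0.54 ± 0.13 (adjusted p = 0.0078) and CRE04110 by -0.65 ± 0.18 (adjusted p = 0.022). Each of these 3 was lost in some fit that left out a single library, at 0.68 to 0.70, -0.50 and -0.59 to -0.52 respectively. Without a batch term the change of CRE04079 was 0.12 (adjusted p = 0.79) and that of CRE04078 -0.35 (adjusted p = 0.10).

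In the ancestor 3 members were called for parental heat, all higher with heated parents, against 3.86% of all genes (2.97% higher). CRE04108 of block 49 had 9.13 and 8.41 CPM in the batch A replicates 1 and 2 at 30 °C with unheated parents and 44.3 and 29.9 CPM with heated parents, and rose by 1.32 ± 0.29 (SE, edgeR adjusted p = 0.0037) over both larval temperatures. At 20 °C it had 24.1 and 25.5 CPM in those replicates and 30.0 and 22.3 CPM with heated parents, which overlapped. CRE21357 of block 45 rose by 1.56 ± 0.41 (adjusted p = 0.021) and CRE04080 of block 48 by 0.56 ± 0.16 (adjusted p = 0.039). CRE21357 was lost without replicate 1 of heated parents at either larval temperature (1.43 in both fits), which left 1 member called, and without a batch term its change was 0.49 (adjusted p = 0.45). CRE04080 was lost in 8 fits that each left out a single library, at 0.50 to 0.62. In control-selected larvae edgeR called 0 members and 0.156% of all genes, and DESeq2 called 1 member and 51 of all tested genes. At an unadjusted p under 0.05 there were 4 members, and the share of all genes under that limit was not counted.

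The counts of CRE_PX356_198 relative to CRE21296 fell into 2 levels that followed the replicate number. Over 30 °C libraries with at least 20 counts of CRE21296, replicates 1 and 2 gave 19.2 to 27.2 counts of CRE_PX356_198 per 100 counts of CRE21296 (7 libraries, median 22.3). Replicates 3 to 6 gave 4.22 to 8.30 (12 libraries, median 5.94). The ranges did not overlap, and each held libraries of all 3 populations. Ancestor replicates 5 and 6 at 30 °C carry the label of batch A and stood at 8.30 and 6.06, within the range of replicates 3 to 6, while the other batch A libraries stood at 19.2 to 23.8. This split was noticed in the values and has no test. Its part in the levels of CRE_PX356_198 above was not tested.

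**Figure D4:**
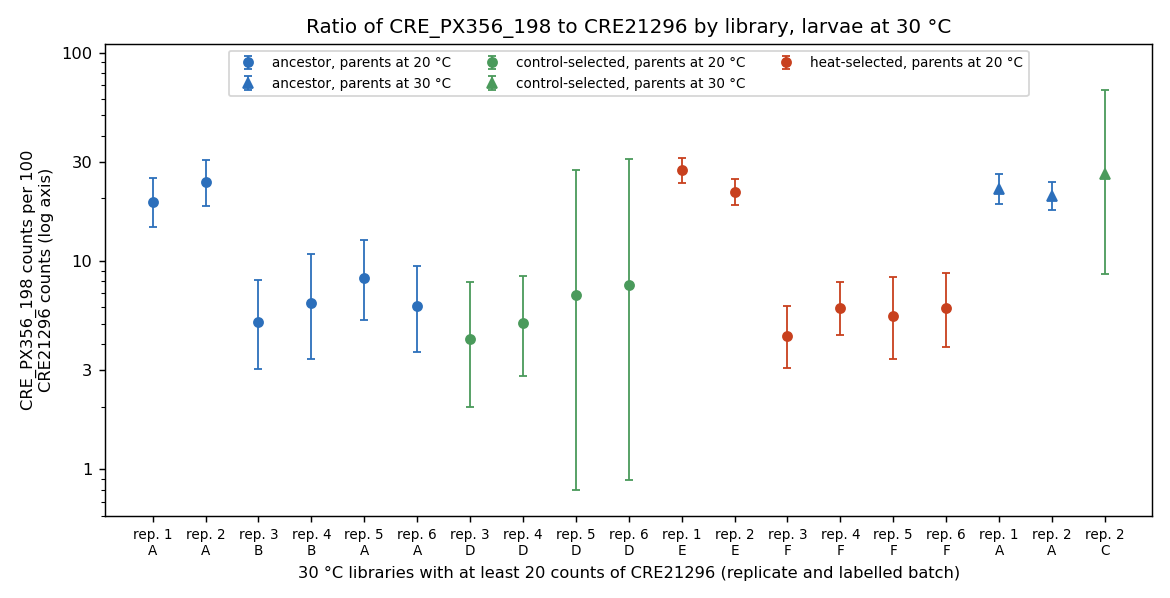
Counts of CRE_PX356_198 per 100 counts of CRE21296 (log axis) in each 30 °C library with at least 20 counts of CRE21296, with 95% exact intervals that cover counting error only. Replicates 1 and 2 stand at 19.2 to 27.2 and replicates 3 to 6 at 4.22 to 8.30. The only control-selected library of replicates 1 and 2 stands at 26.1, with an interval of 8.69 to 65.9.

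At 20 °C with unheated parents no member was called between populations. By edgeR 0 of 56 were called in each of the 3 comparisons, against 0.788% of all tested genes for heat-selected minus ancestor, 0.223% for control-selected minus ancestor and 0.617% for heat-selected minus control-selected. DESeq2 called 1, 0 and 0 members, and 195, 80 and 117 of all tested genes, in the same order. At an unadjusted p under 0.05 there were 11, 7 and 7 members, and the share of all genes under that limit was not counted. The log2 difference of CRE21296 was 2.40 ± 1.02 (SE, adjusted p = 0.32) between heat-selected and ancestor larvae, where the heat-selected mean of 4.65 CPM includes replicate 3 at 26.4 CPM and their median is 0.22 CPM against 0.71 CPM in the ancestor. Without that replicate the difference was -1.90 (adjusted p = 0.76), with the opposite sign, and neither value was called. Each population has its own batches, so batch and population cannot be told apart.

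Genes elsewhere followed the libraries much as CRE21296 did. The pair itself had no common order within groups. In ancestor larvae at 30 °C with unheated parents, replicates 1 and 2 were lowest for CRE21296 and highest for CRE_PX356_198. Among tested genes averaging 1 or more in log2 CPM, the one whose log2 CPM over the 48 libraries was most like that of CRE21296, by Pearson's correlation, was CRE26773 on linkage group 4, at 0.977, chosen after the values were seen. It stood at 23.3 to 81.0 CPM in ancestor larvae at 30 °C with unheated parents and at 117 and 72.5 CPM with heated parents. Heat-selected larvae at 30 °C had 53.9 to 283 CPM of it with unheated parents and 0.88 and 0 CPM with heated parents. In control-selected larvae it stood at 1.07 and 0.46 CPM in batch C and at 4.84 to 65.1 CPM in batch D. CRE_PX356_198 was next at 0.94, and the third was CRE17300 of block 89 on linkage group 2, at 0.935. Of the remaining block 47 models CRE06403 stood at 0.80 and CRE21300, CRE18143 and CRE21370 at -0.09, -0.33 and -0.39. Over the 24 libraries at 30 °C alone CRE26773, CRE_PX356_198 and CRE17300 stood at 0.987, 0.925 and 0.928. There CRE06403 stood at 0.603 and CRE21300, CRE18143 and CRE21370 at -0.158, -0.668 and -0.425. The libraries share batches and depth, so these values describe these 48 libraries only.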

How the data were processed

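Poly-A RNA of pooled L1 larvae was fragmented, copied to cDNA and given barcoded adaptors, per the labels' protocols. The deposited files hold whole-number counts of reads per gene model. The submitters' processing notes name GSNAP 2013-03-31 and HTSeq (version not given in the sources used here). The genome build and whether counting used strand are not given there either, so overlapping and antisense models are not separated. The 5 categories outside gene models (among them ambiguous reads, 1.98 to 5.41% of each library's reads, and reads not aligned uniquely, 1.80 to 6.12%) were left out of library sizes. Reads of near-identical copies fall in the last category, so low counts of such models are uncertain.

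The members and lists were chosen with earlier results of these data known. Counts of all gene models were filtered (filterByExpr, minimum count 10, leaving 13460), scaled by TMM (factors 0.72 to 1.52) and tested with edgeR 4.0.16 (glmQLFit, glmQLFTest) in R 4.3.3 over all 48 libraries, with 12 groups and the 6 labelled batches. Population differences were fitted without batch, since batches are nested in populations. P-values were adjusted by Benjamini-Hochberg over all tested genes, with calls at 0.05. SE is the log2 change divided by the square root of F. DESeq2 1.42.0 was an alternative. Named members are the tested models of block 47, the 2 highest and 2 lowest of each other block by mean larval log2 change, and the members called in each tested comparison, at most 6 by p. Counting intervals are exact at 95%, floors are 3 counts, and both cover counting error only. Alternatives were other scalings, no filter, DESeq2, no batch term, a replicate block, consecutive replicates summed, counts summed per batch, and each replicate left out. The fits were tested on simulated data.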

Additional observations from a re-analysis of the deposited data

Results flagged for a closer look

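Among the 6 tested models of block 47, 6 of 36 groups of 6 libraries held a library set apart from the others. Its gap to the nearest other one was large against the whole range of its group (above Dixon's 95% limit). That limit flags about 1 in 20 groups of normal values. It does not hold for counts near 0: the groups flagged for CRE_PX356_198 had 0 in every other library, where any count is flagged. In the heat-selected group at 20 °C with unheated parents, replicate 3 stood apart upward for 3 models, with 26.4 CPM of CRE21296, 1.47 CPM of CRE_PX356_198 and 82.4 CPM of CRE06403. In the same group replicate 6 stood apart for CRE21370, at 10.03 CPM. In the ancestor group at 20 °C with unheated parents, replicate 6 stood apart for CRE06403, at 107 CPM. In that group replicate 2 stood apart for CRE_PX356_198, at 0.087 CPM, which is the 1 count of that group.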

How the results depend on the processing

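Over 74 calls of members in all comparisons, 1378 alternative values (DESeq2 included) gave 1121 that stayed called and 0 that changed direction. Called members with consecutive replicates summed were 9, 4 and 7 for the larval effect with unheated parents (ancestor, control-selected, heat-selected). Those fits called 2293, 723 and 683 of all 13460 tested genes, against 5255, 3153 and 3000 in the main fit. With heated parents summing leaves 1 library a group, and some or all calls of members were lost in each comparison that had any. Library totals gave 5 for the mean with heated parents, 1 and 4 for the parental effect in ancestor and heat-selected larvae, and 1 for control-selected larvae of heated parents, and moved the median of all genes to -0.27 and -0.16 for the larval effect with unheated parents in ancestor and heat-selected larvae, from 0.02. Of all tested genes they called 2067 for that mean, 489 and 727 for the parental effect and 273 for those control-selected larvae. Without a batch term the members called were 6 for that mean, 10, 1 and 3 for the parental effect (ancestor, control-selected, heat-selected) and 0 for control-selected larvae of heated parents. In the same order 1397, then 2638, 132 and 472, and last 76 of all tested genes were called. Without the filter 644 of 22366 genes and 5 members were called for the parental effect in heat-selected larvae. For the differences from the ancestor with heated parents (heat-selected, control-selected) 59 and 75 genes were called, and 2 and 1 members. DESeq2 called 2 and 3 members for these differences, 1 for the parental effect in control-selected larvae and 1 for heat-selected minus ancestor at 20 °C. Its calls over all tested genes were 81, 151, 51 and 195 in that order. The causes of these shifts were not tested, beyond the fewer libraries in summed fits. With the replicate number as a block, 1 member was called for the heat-selected minus ancestor difference with heated parents, and 3 and 1 for heat-selected and control-selected minus ancestor at 20 °C. Over all tested genes that fit called 50, 400 and 151. Same-numbered libraries deviated together with correlations of 0.031 to 0.835, -0.070 to 0.440 and -0.024 to 0.545 in the 3 populations with unheated parents. In each population 5 of 6 replicate numbers were over 0.1. With heated parents the values were -0.086, -0.078 and 0.115, and 2 libraries a group give both numbers the same value. Not every number was over 0.1, so the numbers were not taken as pairs in the main fit. Whether they pair libraries is not settled by these values. Leaving out 1 library gave 14 to 19, 8 to 12 and 10 to 17 called members for the larval effect with unheated parents (10 without heat-selected 20 °C replicate 1), 7 to 14 for the mean with heated parents (7 without ancestor 30 °C replicate 1 or control-selected 20 °C replicate 1), 1 to 3, 0 to 0 and 3 to 9 for the parental effect, 6 to 10, 0 to 1 and 0 to 1 for heated parents by population, 0 to 2, 0 to 2 and 0 to 0 for the differences between populations with heated parents, and 0 to 0, 0 to 0 and 0 to 1 at 20 °C. The shares of all genes in the fits without 1 library are not given. Depth limits CRE_PX356_198, with 1 to 4 counts in each 20 °C group, and the 29 members that were not tested.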
